A study of Mus musculus with 6 samples.

Results

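Acetylation of lysine 27 of histone H3 (H3K27ac) was examined at 1238 regions that lie over the exons of protein-coding genes but away from any gene start, in B16 F10 mouse melanoma cells sorted into a low-pigment (LP) and a high-pigment (HP) population. The regions were obtained by merging the peak lists of 4 ChIP-seq libraries wherever peaks shared 1 bp or more, which gave 182956 merged regions, 33485 of them called in 2 or more lists. Of these, 15364 were more than 3 kb from every annotated transcription start site (TSS), and the 1238 that overlapped an exon of a protein-coding transcript by 1 bp or more are the exonic regions described here. The other 7704 and 6422 were intronic or outside protein-coding genes. The regions were thus chosen by the peak calls of these same libraries, so the calls and the peak widths are given below as a description, with no test.

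All cells came from the B16 F10 line, grown at 100 cells per cm2 and taken on day 5 of the progressive pigmentation model, and LP and HP cells were separated by their side scatter in a flow cytometer. The cells carried no transgene or added agent in the labels. They were fixed with 1% formaldehyde for 10 min per the labels, and chromatin was precipitated with 1 H3K27ac antibody in 2 replicates of each population (LP 1, LP 2, HP 1 and HP 2). The authors called peaks against IgG libraries of unsorted cells, 1 for each replicate number. Nothing in the labels says that replicates were separate cultures, so every p-value below measures the spread between these samples, which may be technical, and a single cell line is the only model.

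H3K27ac is deposited by the acetyltransferases CBP and p300 and marks active promoters and enhancers. Most enhancers are annotated in introns or between genes, but some coding exons also act as enhancers of their own or a neighbouring gene, and acetylated domains can extend from an intron across an exon. In melanocytes the mark is known from the enhancers of pigment genes such as Tyr, Tyrp1 and Dct, which encode the enzymes of melanin synthesis, and of Mitf and Sox10, which encode the transcription factors that drive them. The last exon of a gene usually carries the stop codon and the 3′ UTR.

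The following stretches of reference sequence show what the acetylated coding exons look like. They were read from GRCm38 around the highest HP summit, 100 bases to each side where no untranslated base lay within that distance, on the strand of the gene and 5′ to 3′, with coding bases in capitals and intron bases in lower case. The first, at chr2:168504823-168505023 on the minus strand, lies in exon 9 of 10 of Nfatc2, a calcium-responsive transcription factor, and was the single region among the 8 strongest called in all 4 libraries whose highest HP summit fell in coding sequence on a chromosome other than 18. The other four were chosen after their values were seen.
Nfatc2: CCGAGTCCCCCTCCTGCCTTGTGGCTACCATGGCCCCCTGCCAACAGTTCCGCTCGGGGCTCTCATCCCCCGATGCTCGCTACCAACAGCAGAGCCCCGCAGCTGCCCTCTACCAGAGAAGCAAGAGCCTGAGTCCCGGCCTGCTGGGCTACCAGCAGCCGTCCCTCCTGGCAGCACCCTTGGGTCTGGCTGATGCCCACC
Mitf: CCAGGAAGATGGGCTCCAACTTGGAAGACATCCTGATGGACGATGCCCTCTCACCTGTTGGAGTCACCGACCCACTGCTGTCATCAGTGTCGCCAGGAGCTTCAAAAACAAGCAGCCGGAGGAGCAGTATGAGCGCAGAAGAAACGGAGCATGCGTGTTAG
Ltbp4: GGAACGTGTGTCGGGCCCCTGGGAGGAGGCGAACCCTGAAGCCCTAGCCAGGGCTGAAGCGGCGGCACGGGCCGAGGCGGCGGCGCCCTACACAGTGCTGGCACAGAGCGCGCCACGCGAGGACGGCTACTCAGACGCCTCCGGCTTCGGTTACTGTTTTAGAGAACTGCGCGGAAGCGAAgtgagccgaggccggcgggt
Fam160b1: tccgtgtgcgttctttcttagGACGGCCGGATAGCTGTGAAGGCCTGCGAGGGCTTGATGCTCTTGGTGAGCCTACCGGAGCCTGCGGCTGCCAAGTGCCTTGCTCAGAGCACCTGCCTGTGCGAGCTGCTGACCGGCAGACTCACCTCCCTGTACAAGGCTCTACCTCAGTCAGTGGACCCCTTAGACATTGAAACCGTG
Btla: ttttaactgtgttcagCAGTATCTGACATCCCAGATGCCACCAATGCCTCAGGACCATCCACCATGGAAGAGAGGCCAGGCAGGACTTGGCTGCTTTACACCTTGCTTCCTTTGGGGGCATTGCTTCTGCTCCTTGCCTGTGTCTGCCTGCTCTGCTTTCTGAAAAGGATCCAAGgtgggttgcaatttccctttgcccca

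The Mitf stretch, at chr6:98018015-98018175 on the plus strand, is the end of the coding sequence in exon 10 of 10 and is 161 bases long because it stops at the last coding base. Its region was called in LP 2 and HP 2. The Ltbp4 stretch (chr7:27329551-27329751, minus strand), the Fam160b1 stretch (chr19:57378958-57379158, plus strand) and the Btla stretch (chr16:45244137-45244337, plus strand) belong to regions called in both HP libraries and neither LP library, and each covers the border of an exon with its intron. None of the 5 stretches holds any of the motifs counted below on either strand, which says only that those letters are not in these windows.

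The sample identity and depth were checked at gene starts. Of 9 melanocyte markers, 8 had a region within 3 kb of a TSS called in all 4 libraries (Mitf, Tyr, Tyrp1, Dct, Pmel, Mlana, Sox10 and Gpr143) and all 9 had one called in both HP libraries. Of 5 markers each for keratinocytes, endothelial cells, fibroblasts and leukocytes, 0, 0, 0 and 1 (Cd68) were called in all 4, and 0, 0, 1 (Col1a1) and 1 (Cd68) in both HP libraries. The libraries held 11467942 to 15353176 fragments and 57942 to 71529 peaks, and the depth behind a single exonic region was low, with a median summit pileup (fragments covering the summit) of 10 and 14 in LP and 13 and 19 in HP. To compare libraries, each pileup was expressed per 1000000 fragments of its library (scaled pileup).

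The exonic regions were called mainly in HP libraries and mainly in 2 lists, as were the intronic regions. A peak was present at 353 of the 1238 regions in LP 1, 790 in LP 2, 925 in HP 1 and 1119 in HP 2, so both HP libraries lay above both LP libraries. These were 28.5%, 63.8%, 74.7% and 90.4%, against 46.8%, 70.1%, 83.2% and 92.9% of all regions in 2 or more lists. Of the intronic regions, 26.3%, 57.0%, 76.0% and 89.0% had a peak, so the order of the libraries was the same in each set. Both HP libraries had a peak at 832 regions (67.2%) and both LP libraries at 232 (18.7%). All 4 libraries called 193 regions (15.6%, Wilson 95% confidence interval 13.7 to 17.7), against 11.5% of intronic regions and 14.7% of those outside genes. The share was 55.5% within 3 kb of a TSS and 36.1% of all regions in 2 or more lists. Another 325 (26.3%) were called in 3 lists and 720 (58.2%) in 2. Of the 7704 intronic regions, 4865 were called in 2 lists.

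A set of 327 exonic regions (26.4%, interval 24.0 to 28.9) was called in both HP and neither LP library, against 21.5% of all regions in 2 or more lists and 31.5% of the intronic ones. In the other direction 26 (2.10%, interval 1.44 to 3.06) were called in both LP and neither HP library, against 1.36% of all and 2.19% of the intronic ones. These intervals cover counting error only. The share of exonic regions called in HP alone rose to 32.8% without LP 1 and to 64.1% without LP 2. That rise is largely by construction, since absence from the LP list that is left then suffices. Regions that needed the dropped list also leave the total. The share is 0 by construction when either HP library is left out, since a region then needs an LP peak to reach 2 lists.

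**Figure D1:**
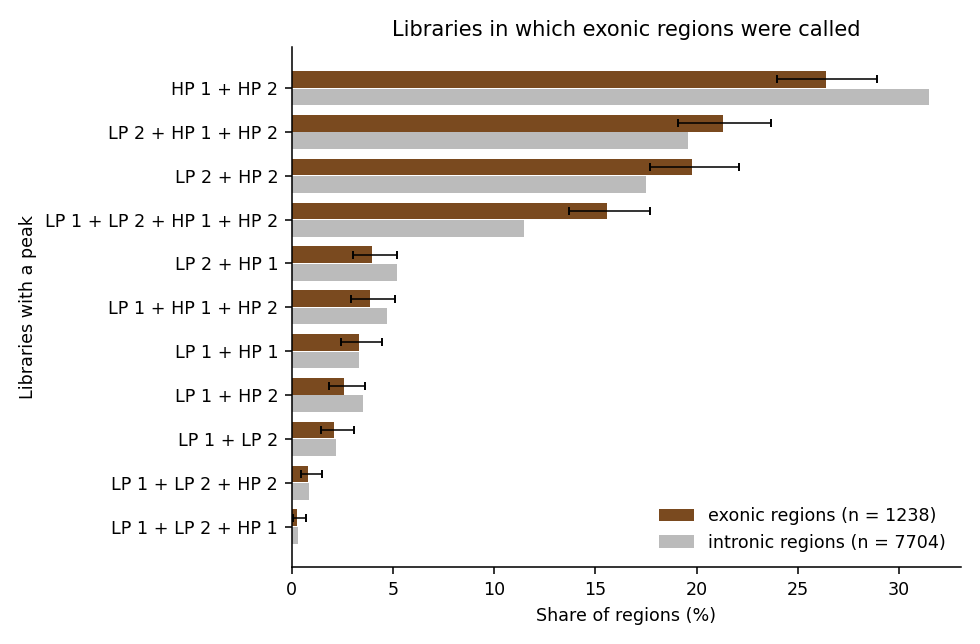
Share of the 1238 exonic regions (brown) and of the 7704 intronic regions (grey) with a peak in each combination of libraries, in percent, with Wilson 95% intervals on the exonic shares. HP 1 with HP 2 was the most frequent combination in both sets, at 26.4% and 31.5%, and all 4 libraries held 15.6% of the exonic and 11.5% of the intronic regions.

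Replicates of 1 population called partly different exonic regions. Both HP libraries called 832, where HP 1 called 925 and HP 2 called 1119. Both LP libraries called 232, where LP 1 called 353 and LP 2 called 790. LP 2 and HP 2 alone called 245 regions (19.8%, against 17.5% of intronic regions), while LP 1 and HP 1 alone called 41 (3.31%, against 3.3%). The 264 regions called in every library but LP 1 outnumbered the 48 called in every library but LP 2. Both replicate 2 libraries had the higher number of fragments in their population. The part of depth in these counts was not tested. The total number of exonic regions fell to 810 when HP 1 was left out and to 580 when HP 2 was left out, against 1138 without LP 1 and 903 without LP 2.

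Peaks over the exonic regions were compared between populations by their width and height, with 2 libraries against 2. The median peak width was 275 bp in LP 1, 394 bp in LP 2, 425 bp in HP 1 and 585.5 bp in HP 2, so the populations did not overlap, although HP 1 exceeded LP 2 by little. In the same order it was 254, 362, 380 and 495 bp at intronic regions. Outside genes it was 260, 369.5, 416 and 526.5 bp, so this order of the libraries was not particular to exonic regions. At exonic regions the mean was 334.5 ± 84.1 bp in LP and 505.2 ± 113 bp in HP (SD, n = 2 each), a difference of 170.8 bp. It is given with no test, because these peaks chose the regions and each library's median covers only the regions it called. Without LP 1 that difference was 111.2 bp and without HP 2 it was 90.5 bp. The number of exonic regions called differed by 450.5 on average (232 without LP 1), which is likewise given with no test because the calls chose the regions. The authors' median fold enrichment over the IgG background was 5.02, 4.79, 5.71 and 6.65 in LP 1, LP 2, HP 1 and HP 2. It was 4.64, 4.69, 5.60 and 6.34 at intronic regions.

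**Figure D2:**
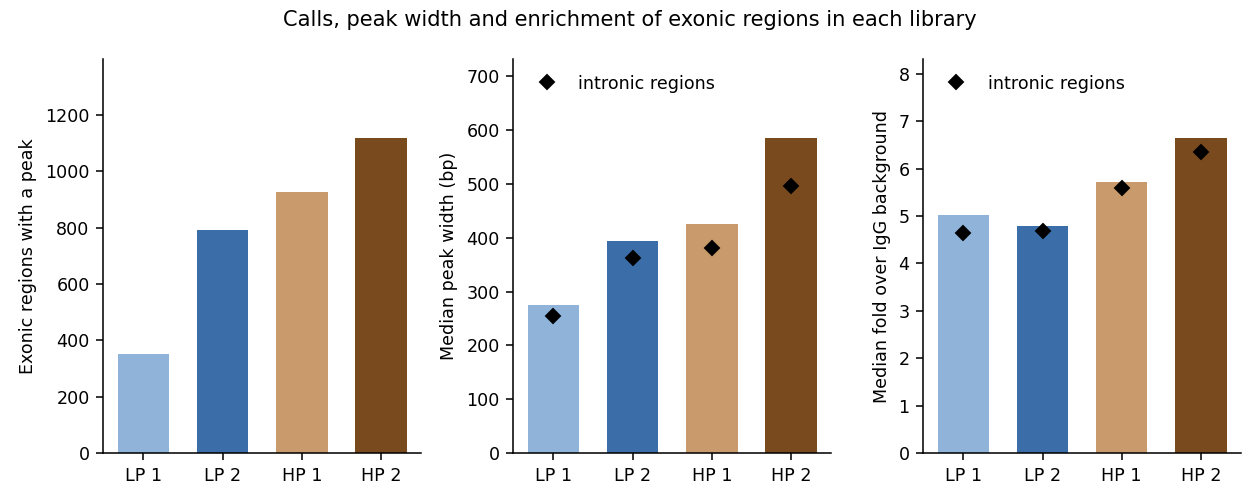
Number of exonic regions with a peak, median width of their peaks in bp and median fold enrichment over the IgG background in each library, with diamonds for the intronic regions. HP 2 had the highest value of all 3 measures, and LP 1 had the fewest calls and the narrowest peaks.

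Exonic regions called in all 4 libraries had a higher summit than intronic regions called in all 4. Their median scaled pileup was 1.13 in LP 1, 1.30 in LP 2, 2.09 in HP 1 and 3.16 in HP 2, and that of the 884 intronic regions was 0.959, 1.11, 1.74 and 2.67. The 941 regions outside genes were closer to the exonic ones, at 1.13, 1.17, 1.92 and 3.09. Their median equalled the exonic one in LP 1 and was only slightly lower in HP 2. On the log2 scale the exonic regions stood 0.24, 0.23, 0.26 and 0.24 above the intronic ones in the same order. The offset was slightly larger in both HP libraries than in both LP libraries (difference 0.02, two-sided exact permutation p = 0.33). That is the smallest p that this design can give, so no difference could have passed. Benjamini-Hochberg adjustment left it at 0.33, over 3 exact tests that took in the calls and the peak widths, whose own p-values are not used here. With regions kept only where a summit lay in an exon, the difference between populations turned to -0.0377 (exact p = 1.0).

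Within genes, the exonic regions were concentrated towards the 3′ end, after the 3 kb rule had removed the gene starts. Of the 1238 regions, 534 (43.1%, interval 40.4 to 45.9) overlapped the last exon of a protein-coding transcript, 698 (56.4%) overlapped internal exons alone, 1 a first exon and 6 a transcript with a single exon. With 1 transcript per gene, the last-exon share was 36.2% of 1166 regions. The median region lay 80.7% of the way from the start to the end of its gene, and 362 regions (29.2%) lay in the last 10% of it, 284 of them over a last exon.

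**Figure D3:**
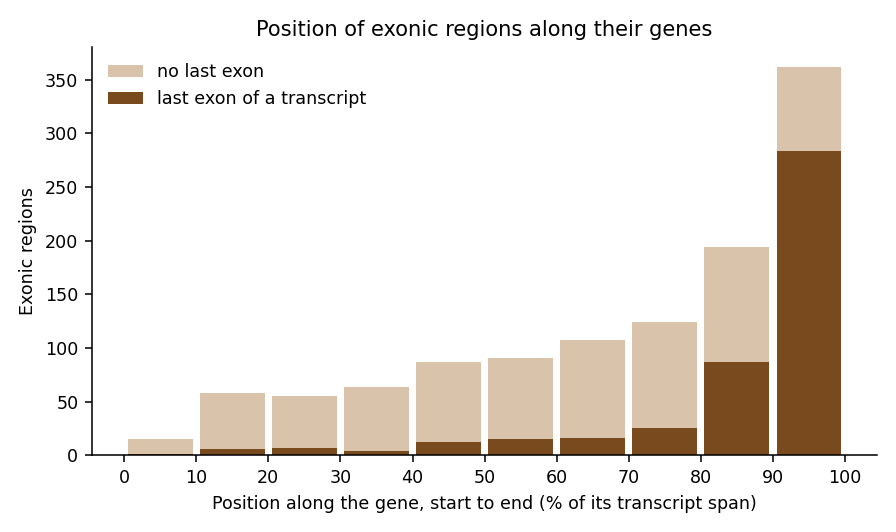
Exonic regions by the position of their midpoint along the gene's transcript with the longest coding sequence, in bins of 10% from start to end, with those over a last exon in dark brown. The last bin held 362 regions, 284 of them over a last exon, and 81 regions whose midpoint fell outside that transcript are not drawn.

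Last exons are long, so these shares were set beside the bases that could have been hit. Of the protein-coding exon bases more than 3 kb from every TSS, 66.5% were in last exons and 43.9% were coding. A single point per region gives the comparable number. The summit with the best rank lay in an exon at 619 of the 8942 exonic and intronic regions (6.92%, interval 6.41 to 7.47), where exons made up 5.26% of the transcribed bases at this distance. Of those 619 summits, 380 (61.4%, interval 57.5 to 65.1) were in a last exon and 344 (55.6%, interval 51.6 to 59.4) in coding sequence. The last-exon share of summits was therefore below that of exon bases and the coding share above it, a description with no test, since regions are not replicates.

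Coding sequence was touched by 989 exonic regions (79.9%), 230 (18.6%) held 3′ UTR without coding sequence and 19 (1.53%) held 5′ UTR alone. An overlap with an exon did not mean that the exon was the centre of the acetylation. The median exonic region was 31.1% exon by length, 228 regions (18.4%) lay wholly in exons and 457 (36.9%) were 50% or more exon. A summit of any library lay in an exon at 793 regions (64.1%). Regions over a last exon were 82.3% exon at the median and those over other exons 18.1%, although their median widths were close, at 728.5 and 723.5 bp.

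Calls by population were also set side by side for last and other exons, as a description. The share called in both HP and neither LP library was 28.1% over last exons (150 of 534, interval 24.4 to 32.0) and 25.1% over other exons (177 of 704, interval 22.1 to 28.5). For all 4 libraries the shares were 16.1% and 15.2%, and for both LP and neither HP library 1.69% and 2.41%. The differences were not tested, since regions are not replicates.

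The exonic regions had a median width of 725.5 bp (quartiles 477 and 1182 bp, range 219 to 11320 bp), against 630 bp for intronic regions and 1176 bp for regions within 3 kb of a TSS. Width followed the number of lists, with medians of 535, 958 and 1637 bp for exonic regions in 2, 3 and 4 lists, and 495, 907 and 1656 bp for intronic ones. A merged region grows with each list that adds to it. The rule also takes any exon overlap of 1 bp or more, which a wider region meets more readily than a narrow one. The part of this selection in the widths, and in the share called in all 4 libraries, was not tested. The 4 widest exonic regions lay in Btd (biotinidase), Creb3l2 (a transcription factor of the secretory pathway), Cry2 (a circadian repressor) and Zbtb7a (a transcriptional repressor).

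The Btd region (chr14:31658698-31670017) spanned 11320 bp and exons 2 to 4 of 4, with scaled pileups of 1.40 in LP 1, 1.43 in LP 2, 2.70 in HP 1 and 9.40 in HP 2. The Creb3l2 region (chr6:37352816-37359418, 6603 bp) crossed exons 5 to 8 of 12. The Cry2 region (chr2:92422673-92428637, 5965 bp) crossed exons 2 to 4 of 12 and contained a RefSeq TSS, and the Zbtb7a region (chr10:81141683-81147370, 5688 bp) was called in LP 2, HP 1 and HP 2 and covered exon 2 of 3.

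The base composition of exonic regions was between that of intronic regions and gene starts. The median GC content was 51.3%, against 48.5% for intronic regions and 55.4% within 3 kb of a TSS, and the median ratio of observed to expected CpG was 0.274, 0.216 and 0.555. Regions with a GC content of 50% or more and a CpG ratio of 0.6 or more made up 59 of the exonic regions (4.77%) and 0.818% of the intronic ones. They made up 4.14% of regions outside genes and 24.3% of all regions in 2 or more lists. Of the 193 exonic regions called in all 4 libraries 23 (11.9%) were of this kind, and of the 327 called only in HP 6 were (1.83%). The median share of repeat-masked bases was 9.72% in exonic and 14.5% in intronic regions.

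Some exonic regions were close to a start that GENCODE did not list. RefSeq placed a TSS within 3 kb of 95 exonic regions (7.67%, interval 6.32 to 9.29), of 25 of the 193 called in all 4 libraries (13.0%) and of 497 intronic regions (6.45%). This check was added after the data were seen. Without the 95 regions, 1143 remained, with a last-exon share of 43.9%.

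The rule used a distance of 3 kb, and the regions nearest to it on the outside lay in Prss56 (3003 bp from a TSS, called in LP 2, HP 1 and HP 2) and Chchd2 (3006 bp, called in LP 2 and HP 2). Just inside it, regions in Osbpl1a (2995 bp) and Apbb2 (2994 bp) met the other conditions.

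The 1238 regions lay in 1038 genes. A single region was found in 877 of these genes, 2 in 120, 3 in 32 and 4 in 9, among them Ets1, Midn, Naca, Nrp2, Pip5k1a, Plekha5, Syne1 and Tbc1d2b. Regions of 1 gene share their surroundings and are not independent. A region at one of the gene's own starts was called in all 4 libraries for 738 of the 1038 genes (71.1%), for 71.6% of the 2433 genes with an intronic region and no exonic one, and for 45.3% of all 21978 protein-coding genes. One exonic region was on an unlocalized scaffold of chromosome 4, and 11 overlapped exons of more than 1 gene.

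The genes with 4 regions differed in how the regions were called. In Ets1, which encodes an ETS transcription factor, regions over exons 3 and 5 were called in LP 2, HP 1 and HP 2, the one over exon 6 in both HP libraries alone, and the one over exon 7 in all 4. The exon 7 region (chr9:32748282-32753403) had scaled pileups of 1.31 in LP 1, 1.04 in LP 2, 2.44 in HP 1 and 4.28 in HP 2. In Naca, a subunit of the nascent polypeptide-associated complex, all 4 regions lay in exon 3 of 9, a single long coding exon, and 3 of the 4 were coding exon over their whole length. Their scaled pileups were low, at 0.522 to 0.842 wherever they were called.

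In Nrp2, which encodes the semaphorin and VEGF receptor neuropilin 2, the region called in all 4 libraries covered exon 4 of 17 (chr1:62741969-62744434). Its scaled pileup was 0.698 in LP 1, 1.30 in LP 2, 1.83 in HP 1 and 4.98 in HP 2. In Syne1, which encodes the nuclear envelope protein nesprin-1, the region over exon 55 of 146 was called in all 4 libraries, those over exons 131 and 132 in all but LP 1, and the one over exons 38 and 39 in HP alone. The region over exons 38 and 39 contains a RefSeq TSS. Midn held its strongest region across and beyond the end of its last exon (chr10:80158101-80161785), with scaled pileups of 1.57, 1.24, 3.13 and 5.47 in LP 1, LP 2, HP 1 and HP 2.

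The strongest exonic regions called in all 4 libraries were ranked by their q-values, with a fold enrichment of 4 or more in every library. The first 8 were in Sh2d6, Pura (a nucleic acid-binding protein of neurons), Sp7 (osterix, a transcription factor of bone), Prdm2 (a zinc finger methyltransferase), Fam172a, Shf, Tmem44 and Nfatc2. Over Sh2d6 (chr6:72511493-72514445, exon 16 of 16) the scaled pileup was 10.6 in LP 1, 8.92 in LP 2, 7.40 in HP 1 and 25.5 in HP 2. HP 1 was the lowest of the 4 and HP 2 the highest, so the populations overlapped there.

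At Pura (chr18:36285910-36288192, exon 2 of 2) the scaled pileup was 6.10 in LP 1, 4.56 in LP 2, 10.5 in HP 1 and 13.3 in HP 2. At Sp7 (chr15:102354968-102356609) it was 6.37, 5.08, 9.40 and 15.9, and at Nfatc2 (chr2:168503201-168505799) it was 2.44, 2.34, 4.96 and 8.63 in the same order. Both HP libraries exceeded both LP libraries at these 3 regions. The log2 ratios of HP to LP were 1.16, 1.11 and 1.45 (SE 0.54), and none of them passed the limma test described below, with adjusted p of 0.118, 0.128 and 0.0744.

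At Prdm2 (chr4:143161333-143162361) and Shf (chr2:122348356-122349727) LP 1, at 6.89 and 7.15, exceeded HP 1, at 6.79 and 5.57. At Tmem44 (chr16:30510216-30515634) HP 2 reached 12.8 against 2.96, 2.87 and 4.70 in LP 1, LP 2 and HP 1, and at Fam172a (chr13:78163046-78164129) 8.98 against 3.49, 3.78 and 4.44. The regions over Pura and Prdm2 each contain a RefSeq TSS. The GC content of the 8 regions was 50.3% to 65.9%, and the CpG ratio was 0.616 to 1.04 at Pura, Sp7, Prdm2, Fam172a and Shf. The exon overlap was slight at some of them, with 0.244% of the Sp7 region and 12.3% of the Prdm2 region being exon.

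Among the 327 exonic regions called in HP alone, those with the best q-value ranks lay in Ltbp4 (a latent TGF-beta binding protein of the matrix), Fam160b1, Akap7 (an anchoring protein of protein kinase A), Camkk2 (a calcium-dependent kinase upstream of AMPK), Mtmr10 and Btla (an inhibitory receptor of lymphocytes). The Ltbp4 region (chr7:27329433-27330476, exons 5 to 7 of 33) had scaled pileups of 2.96 in HP 1 and 2.60 in HP 2 and contained a RefSeq TSS. The Fam160b1 region (chr19:57377996-57379393) had 2.00 and 3.44, and the Camkk2 region (chr5:122731560-122732692) 2.09 and 2.53. The latter lay wholly in the last exon.

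The regions in Akap7 (chr10:25270298-25271710), Mtmr10 (chr7:64296707-64297483) and Btla (chr16:45243986-45244899) had 1.39, 1.83 and 1.57 in HP 1 and 3.02, 2.03 and 1.61 in HP 2. The Akap7 region lay 1237 bp from a RefSeq TSS. No pileup is listed for LP at a region without an LP peak, so no ratio was formed. A region without a peak may hold signal below the threshold of the caller.

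The 26 regions called in LP alone were narrower than those called in HP alone, with a median width of 401.5 bp against 618 bp. Their median q-value rank, a percentile within each library's list, was 47.7 against 55.6. The best ranked were in Lin7c (a scaffold protein of cell junctions), Asap3 (a GTPase-activating protein for Arf), Gatad2a (a subunit of the NuRD complex) and a gene on the unlocalized scaffold. The scaled pileup in LP 1 and LP 2 was 0.785 and 0.782 at Lin7c (chr2:109900991-109901391), 0.698 and 1.11 at Asap3 (chr4:136227465-136227874) and 1.13 and 1.11 at Gatad2a (chr8:69917465-69917778). These values lay under those of the 6 regions named for HP alone, which were the best of 327 and not of 26.

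Pileup heights were compared between HP and LP with limma over the 12084 regions called in all 4 libraries, 193 of them exonic. Before any test, both HP libraries exceeded both LP libraries at 148 of the 193 exonic regions (76.7%), against 74.8% of all regions tested. Exonic and intronic regions had the same median HP to LP ratio, 1.07 on the log2 scale, against 0.92 over all regions tested. It was 0.79 between the replicate 1 libraries and 1.27 between the replicate 2 libraries at exonic regions, where HP 2 stood 0.67 above HP 1 and LP 2 stood 0.12 above LP 1.

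With limma, 13 exonic regions (6.74%) were higher in HP (Benjamini-Hochberg, threshold 0.05 on the adjusted p), against 4.01% of all regions tested, and 0 were lower, against 0.0% of all. The share was 9.28% of the 884 intronic regions, 8.29% of the 941 outside genes and 3.10% of the 10066 within 3 kb of a TSS. The exonic share rests on 13 regions, and the differences between these shares were not tested. At an unadjusted p under 0.05, 98 exonic regions (50.8%) were higher and 0 lower, against 36.2% higher of all regions, 50.2% of the intronic ones and 49.5% of those outside genes. Of the exonic regions over a last exon 4 of 86 passed and of the others 9 of 107. The fit used 1 pooled variance for every region (SE of the log2 ratio 0.54), so the 13 regions are those with the highest ratios.

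The count depended on the libraries and on the scaling. The replicate block, which pairs libraries of the same number, left 1 exonic region (88 of all regions). Leaving out LP 1, LP 2 or HP 2 left 0, and leaving out HP 1 raised the count to 122 (6930 of all), each time with the lone library assumed to vary like the other population. When each library was centred on its own median, 0 exonic regions passed, the median log2 ratio over all regions moved from 0.92 to -0.09 and that of the exonic regions from 1.07 to 0.06. After centring, 107 exonic regions had a ratio above 0 and 86 below it, in place of 185 and 8. A higher level in HP at most regions and a difference in how much of each library was signal cannot be told apart with these values.

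The 13 regions lay in Dip2b, Bcar1 (a scaffold protein of focal adhesions), Uspl1 (a SUMO protease), Srcin1 (a regulator of Src), Spire2 (an actin nucleator known from melanosome transport), Btd, Syne1, Rcsd1, Creb3l2, Gosr2 (a SNARE of the Golgi), Padi2 (an enzyme that citrullinates histones), Ccdc85c and Col15a1 (a basement membrane collagen). The Dip2b region (chr15:100166199-100169917, exons 13 and 14 of 38) had scaled pileups of 1.22 in LP 1, 1.56 in LP 2, 4.09 in HP 1 and 8.28 in HP 2. Its log2 ratio was 2.07 ± 0.54 (SE, limma, adjusted p = 0.0331), and it was the one region that passed with the replicate block (adjusted p = 0.0468). Both HP libraries were above both LP libraries, and the ratio was the highest among the 193 exonic regions. Only 4.52% of the region was exon. Among the 13, the Padi2 region contains a RefSeq TSS.

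The Bcar1 region (chr8:111715678-111718189, exon 3 of 7) had 0.785, 0.912, 2.44 and 4.07 in LP 1, LP 2, HP 1 and HP 2, a log2 ratio of 1.90 (limma adjusted p = 0.0405). The Uspl1 region (chr5:149202125-149204293, exon 8 of 10) had 0.610, 1.04, 2.44 and 3.58, a log2 ratio of 1.89. The Srcin1 region (chr11:97510918-97513082) lay in the last of 20 exons and had 0.959, 1.04, 3.05 and 4.49, likewise a log2 ratio of 1.89. HP 2 was the highest library and both LP libraries were the lowest at each of them.

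The Spire2 region (chr8:123359176-123360839, exons 8 and 9 of 15) had 0.698, 0.977, 2.18 and 4.21 in the same order, with a log2 ratio of 1.87 (limma adjusted p = 0.0406). Among the 13, the lowest ratio was 1.69 at Col15a1 (limma adjusted p = 0.0494). HP 1 exceeded HP 2 at Rcsd1 alone, with 6.10 and 4.70. With an adjusted p between 0.0539 and 0.0623 by limma with the replicate block, the other 12 no longer passed.

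**Figure D4:**
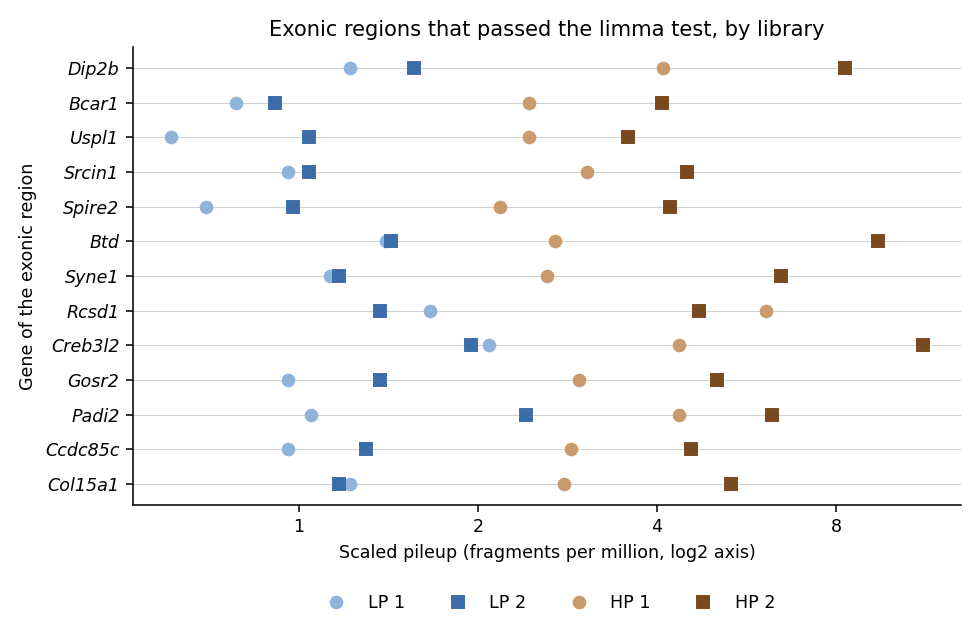
Scaled pileup in each library, per 1000000 fragments on a log2 axis, at the 13 exonic regions that passed the limma test, ordered by their HP to LP ratio from 2.07 at the top to 1.69. Circles are replicate 1 and squares replicate 2, and both HP libraries (brown) lie to the right of both LP libraries (blue) at all 13 regions.

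At the other end, the lowest ratios were found in Iffo1, Iqch, Cables1 and Phldb1. The Iffo1 region (chr6:125158597-125159322) had 1.22 in LP 1, 1.24 in LP 2, 0.697 in HP 1 and 1.19 in HP 2, and both LP libraries exceeded both HP libraries. Its log2 ratio of -0.43 did not pass (limma adjusted p = 0.471). The ratios at Iqch, Cables1 and Phldb1 were -0.41, -0.18 and -0.14, and there the populations overlapped.

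**Figure D5:**
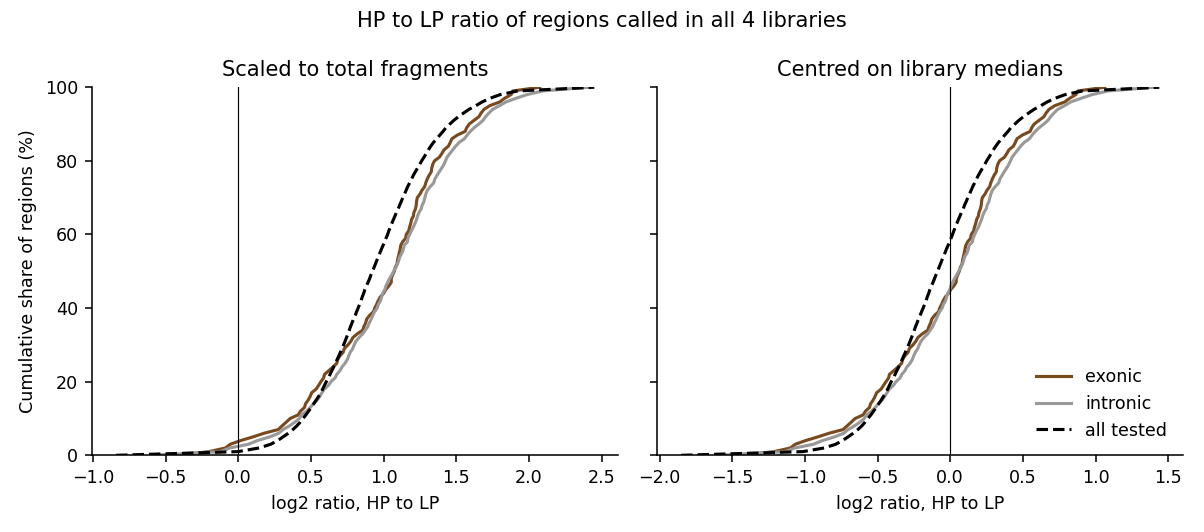
Cumulative share of regions, in percent, by log2 ratio of HP to LP, for the 193 exonic and 884 intronic regions called in all 4 libraries and for all 12084 tested, scaled to total fragments (left) or centred on library medians (right). The median of the exonic regions was 1.07 on the left and 0.06 on the right, and that of all regions 0.92 and -0.09.

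Genes of pigmentation and of the melanocyte lineage held few of the 1238 exonic regions. A larger share of these genes than of all protein-coding genes held one, which was not tested. Of 28 genes of melanin synthesis and the melanosome, 5 held 9 regions, 3 in Mitf, 3 in Tyrp1 and 1 each in Sox10, Dct and Slc7a11. Of the 9, 2 were called in all 4 libraries and 3 in HP alone, in Dct, Tyrp1 and Slc7a11. For comparison, 1038 of all 21978 protein-coding genes held an exonic region, and of all 1238 exonic regions 15.6% were called in all 4 libraries, 26.4% in HP alone and 2.10% in LP alone (36.1%, 21.5% and 1.36% of all regions in 2 or more lists). With 1 to 11 regions in a list, these shares are the base against which the counts of this and the following lists stand. None was called in LP alone, and neither of the 2 tested by limma passed. Their median log2 ratio was 0.78, against 1.07 over the exonic regions tested and 0.92 over all regions tested.

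In Mitf, the region over exon 5 of 10 (chr6:97995380-97996627) had scaled pileups of 0.959 in LP 1, 1.56 in LP 2, 1.74 in HP 1 and 2.88 in HP 2, with a log2 ratio of 0.87 (limma adjusted p = 0.198). The region over exon 9 (chr6:98013692-98014525) had 0.523, 1.24, 1.13 and 1.47. LP 2 exceeded HP 1 at exon 9 but not at exon 5. Over the last exon (chr6:98017716-98018369) LP 2, at 0.912, exceeded HP 2, at 0.631. The Sox10 region (chr15:79155459-79157048) covered the last of 5 exons and had 1.76 in LP 2, 1.65 in HP 1 and 2.17 in HP 2, with no peak in LP 1.

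In Dct, which encodes dopachrome tautomerase, the region over exon 4 of 8 (chr14:118038788-118039862) had 1.13 in HP 1 and 0.842 in HP 2 and no LP peak. It lay 1228 bp from a RefSeq TSS. In Tyrp1, the region chr4:80850238-80850971 had 0.784 in HP 1 and 1.19 in HP 2 and no LP peak. The other two were called in LP 2 and HP 2, with 0.716 and 0.912 at chr4:80851344-80852252 and with LP 2 the higher, at 0.847 against 0.491, at chr4:80837487-80837915.

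The list of 30 melanocyte transcription factors held 10 exonic regions in 5 genes, Ets1, Mitf, Sox10, Tead1 and Pax3, with 3 called in all 4 libraries and 1 in HP alone. Of 30 chromatin modifiers, 5 held 10 regions, 2 called in all 4 libraries, 1 in HP alone and 2 in LP alone. The region over exon 2 of 29 of Hdac5 (chr11:102224349-102225207), the gene of a histone deacetylase, had scaled pileups of 1.13, 1.11, 1.48 and 2.31 in LP 1, LP 2, HP 1 and HP 2, a log2 ratio of 0.72 (limma adjusted p = 0.26). A second region of this gene, over exons 6 to 8 and named after its values were seen, was called in LP alone.

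Of 30 genes of the cytoskeleton and adhesion, 7 held 11 regions, 4 called in all 4 libraries and 2 in HP alone. The strongest, over exon 4 of 41 of the myosin gene Myh9 (chr15:77796486-77800494), had 1.66, 1.95, 3.48 and 6.52 in LP 1, LP 2, HP 1 and HP 2 (log2 ratio 1.41, limma adjusted p = 0.0793). Of 30 genes of the cell cycle, 1 held a region, which lay in the last exon of Cdkn1b, the gene of the inhibitor p27, and was called in LP 1 and HP 2. No exonic region in any of the 5 lists passed limma, where 6.74% of all 193 exonic regions and 4.01% of all regions tested did. The median log2 ratio of those called in all 4 libraries was 0.87, 1.17 and 1.36 in the transcription factor, chromatin and cytoskeleton lists. It was 1.07 over the 193 exonic regions and 0.92 over all regions tested.

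Short motifs of factors known from melanocytes and melanoma were counted within 100 bases to each side of the best summit, on both strands, in 1237 exonic regions placed on a chromosome. The E-box CACGTG was present in 4.04% of them and in 3.74% of intronic regions, and the M-box TCATGTG in 3.64% and 4.08%. The AP-1 motif TGANTCA was present in 5.09% and 6.76%, the Sox motif ACAAAG in 15.1% and 17.0%, and the Tead motif GGAATG in 8.81% and 10.7%. Over all regions in 2 or more lists the shares were 3.85%, 2.42%, 4.90%, 13.0% and 8.91% in that order. The letters of these motifs do not contain one another, and a match is a description of the sequence and not a site of binding.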

How the data were processed

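H3K27ac ChIP-seq peak lists of 2 LP and 2 HP libraries were used. The authors trimmed reads with Trimmomatic 0.33, aligned them to mm10 with Bowtie2 2.5.1 and ran MACS 3.0.0b1 on each library against IgG, with a q-value cutoff of 0.05. The deposited signal is the pileup, a whole number of fragments over the summit with no scaling. The fold enrichment (a ratio over local background) and the −log10 q-value were computed by the authors and used here to rank, describe or filter peaks.

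Lists were merged in Python 3.11.15 and placed on GENCODE M21, whose GRCm38 chromosomes are those of mm10. Sequence and further TSS came from RefSeq. The highest summit stood for a region in each library. limma 3.58.1 in R 4.3.3 compared log2 scaled pileups without a pseudocount, with Benjamini-Hochberg adjustment over 12084 regions. Its variance was shared by all regions. The per-library offset in pileup from intronic regions was compared by exact permutation. The merging of lists and the limma fit were tested on simulated data. Alternatives were q-values of at most 0.01, summits in exons, 5 kb, protein-coding TSS, 3 lists, each library left out, a replicate block, centring, quantile normalization and mean summit pileups.

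Same-numbered libraries are paired because the labels describe replicate sets with equal DNA input, and an IgG library was shared within a number. The replicate differences of LP and HP correlated at 0.0153 over regions.

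Named regions were the 8 with the best q-value rank in all 4 libraries with a fold of 4 or more, the 6 best in HP alone and 4 in LP alone, the 4 highest and 4 lowest limma ratios, the 4 widest, 8 genes with most regions (ties in alphabetical order, so that Tbc1d2b was named after its count was seen), up to 4 per gene list and those at the 3 kb limit. The limma regions below the first 4, and the list genes beyond 4 regions per list, were named after their values were seen. The exonic regions and the gene lists were chosen with earlier results of these data known. Reads were not used here. Some regions that these rules select are not reported here.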

Additional observations from a re-analysis of the deposited data

How the results depend on the processing

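The number of exonic regions was 793 with a summit in an exon, 1978 with the TSS of protein-coding transcripts alone and 518 in 3 or more lists, and it ranged from 580 to 1138 as each library was left out. The last-exon share was 56.1% with a summit in an exon, 38.6% with protein-coding TSS and 36.2% with 1 transcript per gene, and 42.7% to 44.0% without each library. The share called only in HP was 0.0% in 3 or more lists, by construction. It was 0.0% to 64.1% without each library, a range that is largely by construction too. A q-value of at most 0.01, a distance of 5 kb and the added RefSeq TSS moved none of these 3 values beyond 1.5 times or its interval.

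The number of exonic regions higher in HP by limma was 1 with the replicate block, 0 when centred, 0 after quantile normalization, 0 with mean summit pileups and 0 to 122 without each library. It was 10 at a q-value of at most 0.01 and 12 without regions near a RefSeq TSS. With the replicate block the per-library differences stayed at 450.5 regions and 170.8 bp, which are given with no test. The difference in the log2 offset from intronic regions stayed at 0.02 (exact permutation p = 0.5, the smallest for 2 pairs). With a summit in an exon the last became -0.0377.

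Centring and quantile normalization turned the log2 ratio to -0.51 and -0.22 at Sh2d6, -0.39 and -0.21 at Prdm2, -0.21 and -0.16 at Fam172a, and -0.34 and -0.13 at Shf. As each library was left out it ranged from -0.40 to 1.39 at Sh2d6, -0.97 to 0.16 at Iqch, -0.69 to 0.33 at Cables1 and -0.85 to 0.57 at Phldb1. The cause was not tested. At 10 to 19 fragments per summit, a region without a peak cannot be read as unacetylated.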
